A study of Mus musculus with 9 samples.

Results

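Hmox1, the gene of heme oxygenase 1, was examined together with 7 other genes of heme breakdown and iron handling in senescent mouse embryonic fibroblasts, across 2 hairpins against Rela and a scrambled control. The 8 genes are Hmox1, Blvra, Blvrb, Fth1, Ftl1, Slc40a1, Tfrc and Bach1, of 24062 genes in the count table. Hmox1 was chosen by its measured level, which differs strongly between the hairpins, so its values are given as a description with no test. The other 7 were taken for their function. The cells were C57BL/6 embryonic fibroblasts made senescent with gamma rays, and at day 10 after irradiation they were infected with lentivirus carrying a short hairpin RNA. Cells with shRela-1 and cells with shRela-2 carried independent hairpins against Rela, the gene of p65, a subunit of NF-kB. Cells with shScr carried the scrambled hairpin, so that all 3 groups were irradiated and infected. Each group had 3 samples, and the labels do not say whether separate cultures or embryos were used, so the p-values reflect the spread among these samples, which may be technical.

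Heme oxygenase 1 opens the heme ring and releases iron, carbon monoxide and biliverdin, which the biliverdin reductases turn into bilirubin. The iron that is set free is stored in ferritin, a shell of heavy and light chains, or leaves the cell through ferroportin, while the transferrin receptor brings iron in. BACH1 is a repressor that sits with small MAF proteins on the control regions of Hmox1, the ferritin genes and the ferroportin gene, comes off when it binds heme, and competes there with the activator NRF2. Iron also acts on some of these transcripts directly, through iron-responsive elements, short hairpins with the loop CAGTGN that iron regulatory proteins bind when iron is scarce.

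The elements are shown because they divide the 8 genes into those whose transcripts can be read by the iron regulatory proteins and those with no such match. Transcripts of GENCODE vM21 were searched on the sense strand for a C, 5 bases, the loop CAGTGN with a last base other than G, and 5 bases that pair with the first 5, with at most 1 wobble pair. The 5' untranslated regions of 3 of the 8 genes held 1 site each, and the 3' untranslated region of Tfrc held 4. Among all coding genes matched to a row of the count table, 10 of 19986 had a match in the 5' region and 42 of 20071 in the 3' region. Hmox1, Blvra, Blvrb and Bach1 had no match to these letters. Each site is given with its position in mm10, and capitals mark the loop.
Fth1 (chr19:9982733-9982760, plus strand, 5' region): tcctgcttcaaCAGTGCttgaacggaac
Ftl1 (chr7:45459779-45459806, minus strand, 5' region): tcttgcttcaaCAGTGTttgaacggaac
Slc40a1 (chr1:45925465-45925492, minus strand, 5' region): aacttcagctaCAGTGTtagctaagttt
Tfrc (chr16:32631220-32631247, plus strand, 3' region): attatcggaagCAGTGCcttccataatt
Tfrc (chr16:32631599-32631626, plus strand, 3' region): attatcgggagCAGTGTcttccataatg
Tfrc (chr16:32631664-32631691, plus strand, 3' region): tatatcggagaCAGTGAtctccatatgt
Tfrc (chr16:32631711-32631738, plus strand, 3' region): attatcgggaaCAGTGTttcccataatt
In the 5' region such an element is known to control translation, which RNA counts do not measure. In the 3' region of Tfrc, iron regulatory proteins bound to the elements are known to stabilise the transcript.

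Totals per sample ran from 49774667 to 67963506 counts. Rela was left at 15.5% to 17.3% of its shScr mean in the 6 knockdown samples. Summed levels of 10 fibroblast markers were 60000 to 63100 CPM (counts scaled to library size) with shRela-1, 52300 to 55300 CPM with shRela-2 and 53300 to 58900 CPM with shScr. Markers of macrophages, which also use Hmox1 and Slc40a1, were detected: 13 of 14 listed markers were in the table, and 9 averaged over 1 CPM in each group. The sums of the 13 overlapped between groups, at 404 to 530, 350 to 533 and 409 to 593 CPM. Lyz2 made up most of these sums (345, 324 and 366 CPM), Spic had no count, and Cd163 stayed at or below 0.0552 CPM in each group's mean. In the same order Csf1r was at 26.2, 21.9 and 25 CPM, Cd68 at 16.1, 13.1 and 14.9 CPM and Mrc1 at 15.5, 11.5 and 14.4 CPM. Of these markers Itgam was called, at 18.9 CPM with shRela-1, 13.6 CPM with shRela-2 and 19.8 CPM with shScr. It fell with shRela-2 (-0.54, adjusted p = 0.0171) and was higher with shRela-1 than with shRela-2 (0.48, adjusted p = 0.0248), and these calls were lost without shRela-2 replicate 1 or 3 (adjusted p from 0.0605 to 0.0845), among others. In the fit that pairs samples by replicate number, 7 of 11 tested macrophage markers were lower with shRela-2 than with shScr and 7 were higher with shRela-1 than with shRela-2, the directions that Hmox1 also had. That fit called 6830 and 7974 of all 15369 genes in these comparisons, in either direction. Ptprc (-0.03 and 0.003) and Tyrobp (0.06 and 0.01) were near 0 in both without pairing. Of the 10 fibroblast markers 3 rose with shRela-1 (8 in the paired fit, and 1 without shRela-1 replicate 3 or shScr replicate 2), and 5 were higher with shRela-1 than with shRela-2 (9 in the paired fit, and 3 without shRela-1 replicate 3). Over all genes tested, 12.3% and 19.9% were called higher in these comparisons. The paired fit called 6034 and 7974 of 15369 genes there, in either direction. Its numbers in each direction are not given, so no like share stands beside the paired counts of macrophage or fibroblast markers. Pdgfrb was lower with shRela-1 than with shScr (-0.27, adjusted p = 0.0421) and than with shRela-2 (-0.29, adjusted p = 0.0199), and both calls were lost when replicate 1 of shRela-1 or replicate 2 of shRela-2 was left out, among others. Vim fell with shRela-2 (-0.39, adjusted p = 5.52e-05). Epithelial markers summed to 11.9 to 20.2, 7.05 to 9.49 and 7.52 to 11.1 CPM, and endothelial markers to 4.96 to 6.52, 4.90 to 6.71 and 5.67 to 6.15 CPM, with shRela-1, shRela-2 and shScr. The epithelial marker Krt18 was at 11.0 CPM with shRela-1, 5.03 CPM with shRela-2 and 5.38 CPM with shScr. It was higher with shRela-1 than with shRela-2 (1.14, adjusted p = 0.0256, or 0.0883 to 0.102 when replicate 1 of shRela-1, or replicate 2 or 3 of shRela-2, was left out), the direction that Hmox1 also had. For shRela-1 against shScr Krt18 had a value of 1.05 (adjusted p = 0.0528, and 4.61e-09 in the paired fit), and Krt8 passed between the hairpins in the paired fit (0.80, adjusted p = 0.00455, against 0.0626 without pairing). Other epithelial markers differed: in the same order of groups Epcam was at 0.0636, 0.113 and 0.0933 CPM and Krt5 at 2.62, 2.25 and 2.76 CPM. Krt14 was at 0.0109, 0.00593 and 0.0733 CPM, and Cdh1, ordered like Hmox1, at 0.187, 0.0902 and 0.147 CPM. The part of any of these cells in the results below was not tested. Among red cell markers the globin genes Hba-a1, Hba-a2, Hbb-bs and Hbb-bt had no count. A dataset number stands in the titles of the shScr samples alone, so a batch that goes with it and the control hairpin cannot be told apart.

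A single control library stood apart: counts of shScr replicate 2 differed from those of the other shScr samples with a chi-square per degree of freedom of 112 and 109, against 20.1 between those others and 11.9 to 34.4 within the knockdown groups. Without it Bach1 was at -0.49 with shRela-1 and 0.45 with shRela-2 against shScr, Fth1 at 0.41 and -0.26, Ftl1 at 0.49 and 0.23, and Slc40a1 at 1.39 and 0.01 (log2 fold changes). Hmox1 was then at 1.54 and -0.68, and Tfrc at -0.24 and -0.29. Of the members' calls against shScr, that of Tfrc with shRela-1 was lost without this library.

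Hmox1 was far higher with shRela-1 than in either other group, and lowest with shRela-2. In mm10 the gene spans 75093621 to 75100589 of chromosome 8 (plus strand). Its level was 524, 554 and 456 CPM with shRela-1, 109, 116 and 106 CPM with shRela-2, and 182, 195 and 170 CPM with shScr. The 3 groups did not overlap, and shScr stood between the hairpins. The means were 511 ± 50.3 CPM with shRela-1, 110 ± 4.87 CPM with shRela-2 and 183 ± 12.7 CPM with shScr (SD, n = 3 each). These means put Hmox1 at 280% of its shScr mean with shRela-1 and at 60.4% with shRela-2. Between the hairpins the difference was 4.63-fold (2.21 on the log2 scale), while Rela itself differed by -0.03 on the log2 scale (95% interval from -0.138 to 0.0867). Of the 15369 genes tested, 22 had a larger absolute log2 difference between the hairpins. Hmox1 was chosen for this same difference, so nothing is read from that rank. RNA was taken from whole cultures, so fewer cells that express a gene and less RNA per cell cannot be told apart.

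**Figure D1:**
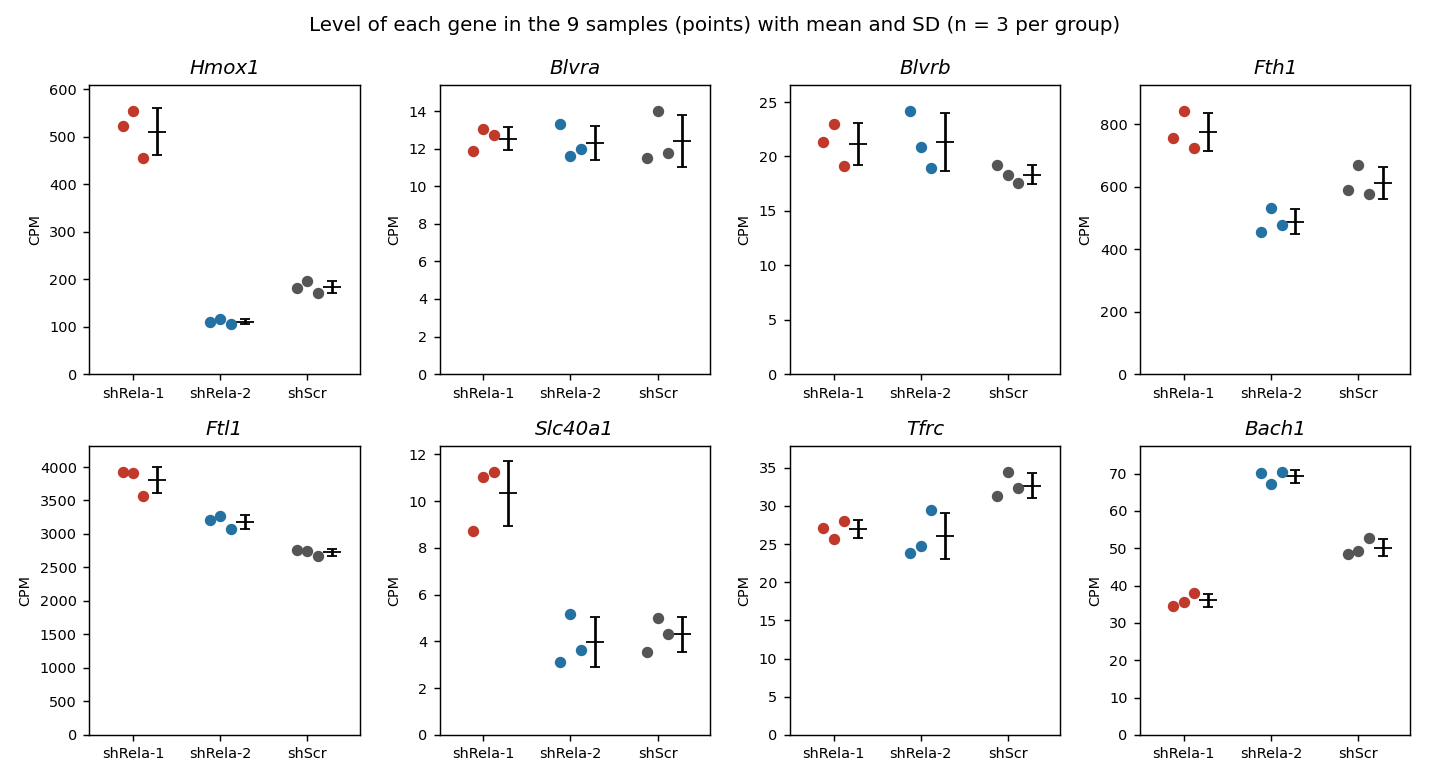
Level of each of the 8 genes in CPM (y axis, from 0, with its own scale per gene) in the 9 samples, by group on the x axis; points are samples and the bars beside them show the mean and SD (n = 3). Hmox1 lies between 456 and 554 CPM with shRela-1, above all other samples, while Bach1 has the reverse order of groups, lowest with shRela-1 and highest with shRela-2.

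Bach1, the gene of the repressor, ran opposite to Hmox1: it fell with shRela-1 and rose with shRela-2. It lies on chromosome 16, 87698945 to 87733346, plus strand. Its level was 34.5, 35.7 and 38.0 CPM with shRela-1, 70.0, 67.2 and 70.4 CPM with shRela-2, and 48.5, 49.3 and 52.6 CPM with shScr. No sample of any group reached into another group's range. Against shScr the change was -0.48 ± 0.0464 with shRela-1 (log2 fold change ± SE, here and below; adjusted p = 4.57e-05) and 0.47 ± 0.0458 with shRela-2 (adjusted p = 4.31e-05). Here and below the test is glmQLFTest of edgeR, and adjustment is by Benjamini-Hochberg over all 15369 genes. The mean with shRela-1 was 36.1 ± 1.79 CPM and that with shRela-2 69.2 ± 1.74 CPM, a difference of -0.94 ± 0.0464 (adjusted p = 1.48e-07). These 3 calls held under each of the 15 alternatives run.

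The heavy chain of ferritin, Fth1, which holds the iron-oxidising site of the shell, moved with the 2 hairpins in opposite directions. Fth1 spans 9980598 to 9985098 of chromosome 19 (plus strand). Its level was 758, 842 and 726 CPM with shRela-1, 457, 533 and 476 CPM with shRela-2, and 589, 670 and 577 CPM with shScr. Every shRela-1 sample was above and every shRela-2 sample below the 3 shScr samples. The change was 0.34 ± 0.0777 with shRela-1 (adjusted p = 0.00937) and -0.33 ± 0.0778 with shRela-2 (adjusted p = 0.00909), and the hairpins differed by 0.67 ± 0.078 (adjusted p = 6.57e-05). All 3 calls held under the 15 alternatives, with adjusted p up to 0.0452 for shRela-1 against shScr.

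The light chain, Ftl1, which helps the iron core of ferritin to form, rose with both hairpins, unlike Fth1. It lies on chromosome 7, 45457944 to 45459884, minus strand. Its level was 3926, 3911 and 3574 CPM with shRela-1, 3215, 3269 and 3068 CPM with shRela-2, and 2765, 2744 and 2668 CPM with shScr. The groups did not overlap, and shRela-1 was the highest. The change was 0.48 ± 0.0458 with shRela-1 (adjusted p = 3.96e-05) and 0.22 ± 0.0458 with shRela-2 (adjusted p = 0.00386), with 0.26 ± 0.0458 between the hairpins (adjusted p = 0.00116). Exons of Ftl1 share 355 bases with Gm10252 on the opposite strand and 109 bases with the miRNA gene Gm22133, and the library kit does not mark strand. The annotation also names 5 ferritin pseudogenes, none of which has a row in the count table, so how their reads were treated is uncertain for both chains.

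Slc40a1, the gene of the iron exporter ferroportin, was low in all groups and rose with shRela-1. It lies on chromosome 1, 45908068 to 45926523, minus strand. The shRela-1 samples had 542, 707 and 690 counts (8.73, 11.0 and 11.3 CPM), the shRela-2 samples 162, 321 and 204 counts (3.13, 5.17 and 3.63 CPM) and the shScr samples 178, 338 and 272 counts (3.55, 5.01 and 4.32 CPM). All shRela-1 samples stood above the other 6, which overlapped each other. The change with shRela-1 was 1.26 ± 0.189 (adjusted p = 0.000787), and the hairpins differed by 1.37 ± 0.19 (adjusted p = 0.000213). Both calls held under the 15 alternatives. With shRela-2 the value was -0.11 ± 0.194 (adjusted p = 0.718), with a 95% interval from -0.542 to 0.319.

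Tfrc, the transferrin receptor that imports iron, was lower with both hairpins. It lies on chromosome 16, 32608920 to 32632794, plus strand. Its level was 27.1, 25.7 and 28.03 CPM with shRela-1, 23.9, 24.8 and 29.5 CPM with shRela-2, and 31.3, 34.5 and 32.3 CPM with shScr. All 6 knockdown samples were below the 3 shScr samples, and the knockdown groups overlapped. Tfrc fell by 0.28 on the log2 scale with shRela-1 (SE 0.078, adjusted p = 0.0244) and by 0.33 with shRela-2 (SE 0.0783, adjusted p = 0.00902). The call with shRela-1 was lost without shRela-1 replicate 1 (adjusted p = 0.0511) or replicate 2 (0.082), and without shScr replicate 2 (0.0863) or replicate 3 (0.0621). Between the hairpins the value was 0.05 ± 0.0785, with a 95% interval from -0.126 to 0.222.

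The biliverdin reductases, which act after heme oxygenase, were not called in any of the 3 contrasts. Blvra, biliverdin reductase A, lies on chromosome 2, 127070665 to 127097084, plus strand, and was at 12.5 ± 0.61 CPM with shRela-1, 12.3 ± 0.889 CPM with shRela-2 and 12.4 ± 1.37 CPM with shScr (SD, n = 3 each). Its values against shScr were 0.01 with shRela-1 (95% interval from -0.189 to 0.213) and -0.02 with shRela-2 (-0.218 to 0.185). Blvrb, biliverdin reductase B, lies on chromosome 7, 27447978 to 27466144, plus strand, and was at 21.2 ± 1.97, 21.3 ± 2.65 and 18.3 ± 0.848 CPM in the same order of groups. The Blvrb samples of each knockdown group overlapped those of shScr, with 0.21 ± 0.0955 for shRela-1 (adjusted p = 0.149) and 0.22 ± 0.0957 for shRela-2 (adjusted p = 0.115). In the fit that pairs samples by replicate number both Blvrb values passed, at 0.20 (adjusted p = 0.0129) and 0.21 (adjusted p = 0.00903), and the value with shRela-2 also passed without shRela-2 replicate 3 (adjusted p = 0.045).

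Hmox2, the constitutive heme oxygenase, was set beside Hmox1 as its close relative and is not among the 8 genes. It was at 28.8 ± 1.55 CPM with shRela-1, 25.4 ± 2.48 CPM with shRela-2 and 25.0 ± 1.68 CPM with shScr (SD, n = 3 each). Its value was 0.21 ± 0.0783 with shRela-1 (adjusted p = 0.0809, or 0.00279 in the paired fit and 0.0394 without shRela-2 replicate 1) and 0.02 ± 0.0786 with shRela-2 (adjusted p = 0.873). Between the hairpins it was 0.19 ± 0.0783 (adjusted p = 0.0856, or 0.0044 in the paired fit and 0.016 without shRela-2 replicate 1). Its exons share 892 bases with Cdip1 on the opposite strand.

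All 7 genes other than Hmox1 passed the filter on low counts. With shRela-1 against shScr 3 rose and 2 fell, where 24.7% of all genes tested were called (12.3% higher and 12.4% lower), and 5 of the 7 had groups that did not overlap, beside 39.6% of all genes. With shRela-2 against shScr 2 rose and 2 fell, where 30.9% were called (15.4% in each direction), and 4 of the 7 did not overlap, beside 44.1%. Between the hairpins 3 were higher and 1 was lower with shRela-1, where 39.9% were called (19.9% higher and 20% lower), and 4 of the 7 did not overlap, beside 50.1%. Hmox1 was chosen from that last contrast, so nothing is read from its count. Both comparisons against shScr share the control samples. The count of members called stayed within 1.5 times under each alternative run.

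**Figure D2:**
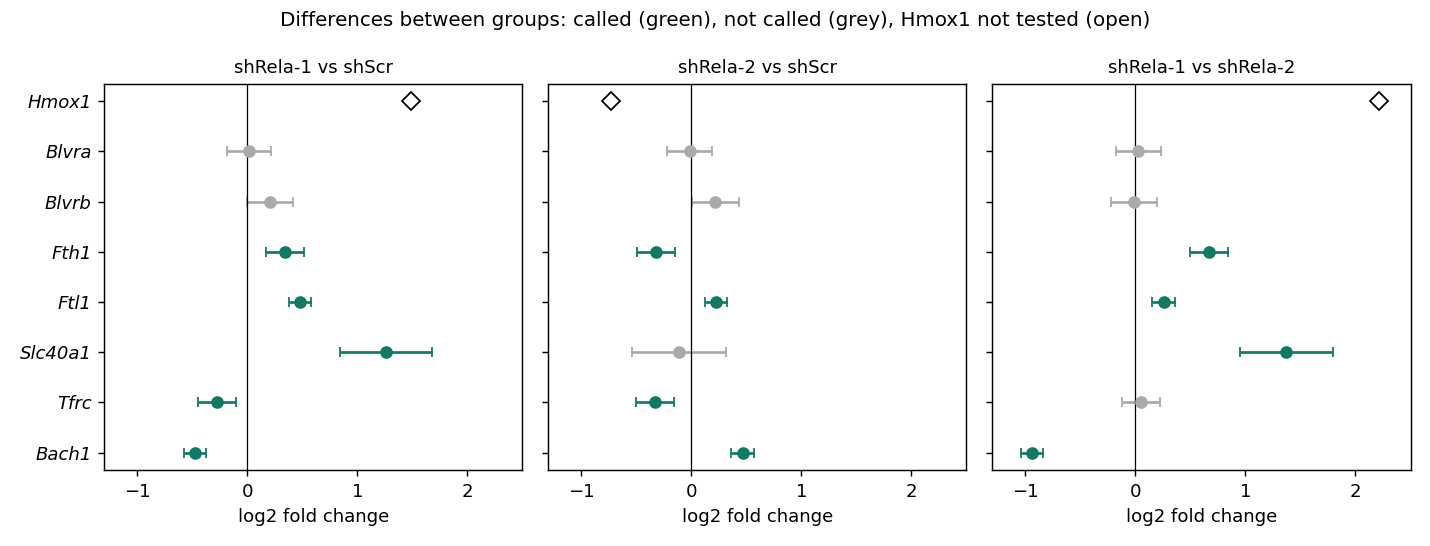
Log2 fold change (x axis, the same range in each panel) of the 8 genes (rows) in the comparisons of shRela-1 with shScr, shRela-2 with shScr and shRela-1 with shRela-2; bars are 95% intervals, green marks genes called at an adjusted p under 0.05, grey those not called, and the open diamond Hmox1, which was not tested. Bach1 (-0.48 and 0.47) and Fth1 (0.34 and -0.33) lie on opposite sides of 0 with the 2 hairpins, while Ftl1 and Tfrc keep their side.

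Per length of annotated exon, the light chain of ferritin was by far the most abundant of the 8. In shScr cells Ftl1 stood at 2034 ± 37.9 CPM per kb, Fth1 at 177 ± 14.6 and Hmox1 at 104 ± 7.24 CPM per kb (SD, n = 3 each). Bach1 followed at 8.11 ± 0.357, Blvrb at 6.59 ± 0.305, Tfrc at 5.28 ± 0.262, Blvra at 5.08 ± 0.561 and Slc40a1 at 0.477 ± 0.0812 CPM per kb. Tfrc and Blvra did not differ beyond their spread in this order. On this length Hmox1 was at 292 ± 28.7 CPM per kb with shRela-1, above Fth1 at 223 ± 17.3, and with shRela-2 it stood at 63.0 ± 2.78 CPM per kb, below Fth1 at 141 ± 11.4. With the longest transcript as the length, Hmox1 was below Fth1 in all 3 groups (326 against 376 CPM per kb with shRela-1, 70.3 against 237 with shRela-2 and 116 against 297 with shScr), so which of the 2 is higher with shRela-1 depends on the length used. On that length Blvrb led Blvra, Bach1 and Tfrc in shScr cells (12.2, 8.50, 8.55 and 6.68 CPM per kb), so the order among these 4 depends on it too.

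**Figure D3:**
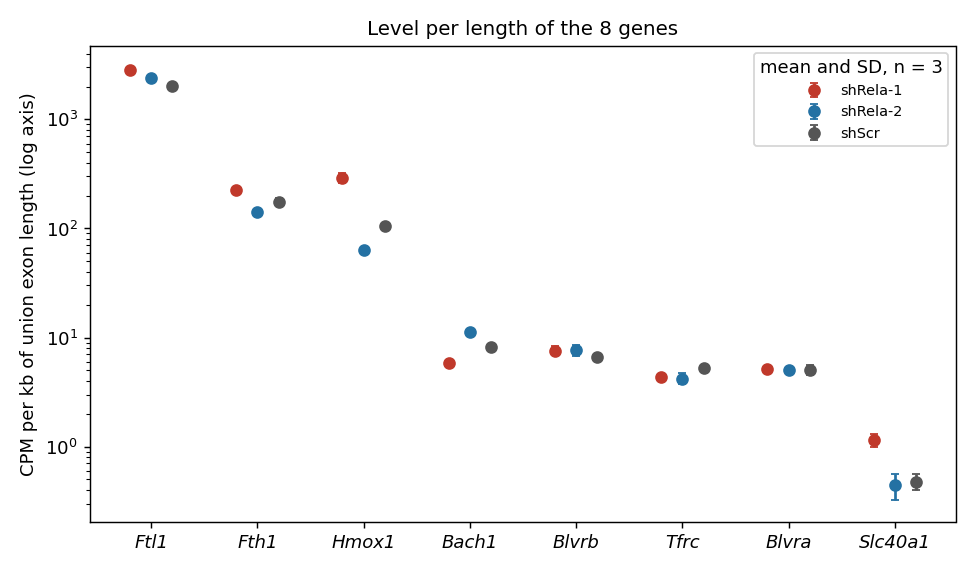
Mean level per kb of union exon length (y axis, log scale, CPM per kb) of the 8 genes (x axis, ordered by the shScr mean) in the 3 groups, with the SD (n = 3) as bars. Ftl1 is at 2034 CPM per kb or more in every group, and Hmox1 lies above Fth1 with shRela-1 on this length, though below it in every group when the longest transcript is the length.

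Genes whose pattern was most like that of Hmox1 were ranked by Pearson's r of log2 CPM over the 9 samples, among the 9394 genes that averaged 3 or more on that scale. The samples fall into the 3 groups, which the ranking shares with Hmox1, so r is a description with no p. For naming the top 5, genes known only by clone or model numbers were passed over. The 5 genes at the top were then Atp6v1b2, a subunit of the vacuolar proton pump (r = 0.9904), the adenylate kinase gene Ak5 (0.9897), Plekhj1 (0.9881), Fam150a (0.9877) and Adamtsl1 (0.9869). Their differences were smaller: Atp6v1b2, for example, was at 112 ± 1.86 CPM with shRela-1, 76.1 ± 2.23 CPM with shRela-2 and 87.6 ± 2.36 CPM with shScr. Fam150a came nearest in size, with 34.1 ± 2.14, 15.5 ± 1.003 and 20.4 ± 1.80 CPM. By Spearman's rho the 5 genes at the top were all others. On the same measure, ranked with no gene passed over, Fth1 had r = 0.952 (rank 136 of 9394), Ftl1 0.685 (rank 1929) and Blvra 0.151 (rank 4103). Blvrb had 0.146 (rank 4117), Tfrc -0.0538 (rank 4836) and Bach1 -0.98 (rank 9267, so others were more negative). Slc40a1 had 0.914 but no rank, as its mean log2 CPM of 2.48 is under the floor of 3.

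The partners of BACH1 and NRF2 were read from a list of 10 further regulators, all tested. Nfe2l2, the gene of NRF2, was at 112 ± 4.99 CPM with shRela-1, 72.7 ± 2.01 CPM with shRela-2 and 100 ± 3.33 CPM with shScr (SD, n = 3 each). It rose with shRela-1 (0.16 ± 0.043, adjusted p = 0.0192) and fell with shRela-2 (-0.46 ± 0.0433, adjusted p = 3.1e-05). The rise was lost without shRela-1 replicate 1 (adjusted p = 0.0676), shScr replicate 2 (0.0724) or shScr replicate 3 (0.0735). Keap1, whose product marks NRF2 for breakdown, went the other way, at 52.4 ± 1.097, 69.1 ± 1.73 and 58.7 ± 0.253 CPM in the same order of groups. Its changes were -0.16 ± 0.0325 (adjusted p = 0.00469) and 0.24 ± 0.0324 (adjusted p = 0.000367). Mafk, a small MAF partner of both factors, rose with each hairpin (0.36 ± 0.0798 and 0.38 ± 0.0799, adjusted p = 0.00766 and 0.00451).

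Of these 10 regulators 3 rose and 5 fell with shRela-1, and 2 rose and 3 fell with shRela-2. Between the hairpins 2 were higher and 4 lower with shRela-1. Over all genes tested 24.7% were called with shRela-1, 30.9% with shRela-2 and 39.9% between the hairpins. The paired fit called 6034, 6830 and 7974 of the 15369 genes in these comparisons. These shares stand beside each list count here and below, and no list was tested against them. The list's medians were -0.14, 0.0020 and -0.0065 in these comparisons, beside 0.0026, -0.0020 and -0.0045 over all genes. Genes outside the naming rule, named after their values were seen, are Bach2, Nfe2l1, Maff and Mafg among those that fell with shRela-1, Maff and Fbxo22 with shRela-2, and Sqstm1, which rose with shRela-1. With shRela-1 the number that rose was 1 without shRela-1 replicate 1 or shScr replicate 2 or 3. The number that fell was 3 without shRela-1 replicate 2 or 3 or shScr replicate 1, and 2 without shScr replicate 2.

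The list of other genes that NRF2 drives or BACH1 holds down held, among its largest changes, a cystine importer, a quinone reductase and malic enzyme. Of 20 tested members of this list, 6 rose and 1 fell with shRela-1, and 1 rose and 4 fell with shRela-2. Among all genes tested 12.3% rose and 12.4% fell with shRela-1, and 15.4% went in each direction with shRela-2. Between the hairpins 12 were higher and 2 lower with shRela-1, with a median of 0.26 beside -0.0045 over all genes. In that comparison 19.9% of all genes were called higher and 20% lower. Against shScr the medians were 0.13 with shRela-1 and -0.05 with shRela-2. In the paired fit 10 rose with shRela-1, and 2 rose and 8 fell with shRela-2. Without shScr replicate 2, 2 fell with shRela-2, and the 1 call that rose was lost without it, shRela-2 replicate 1 or shScr replicate 1. The exceptions, named after their values were seen, were Tkt, the transketolase gene, which fell with shRela-1 (-0.59), and the glutathione reductase gene Gsr, which rose with shRela-2 (0.28).

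Within that list Slc7a11, the cystine importer, was at 6.66 ± 0.882 CPM with shRela-1, 2.996 ± 0.936 CPM with shRela-2 and 5.74 ± 1.61 CPM with shScr (SD, n = 3 each). It was higher with shRela-1 than with shRela-2 by 1.15 ± 0.249 (adjusted p = 0.00387). Its fall with shRela-2 against shScr (-0.94, adjusted p = 0.0154) was lost without shScr replicate 2 (0.0589) or 3 (0.0556). Nqo1, a quinone reductase often used as a readout of NRF2, was at 31.1 ± 7.06, 15.4 ± 4.62 and 20.6 ± 6.53 CPM in the same order of groups, and differed between the hairpins by 1.01 ± 0.267 (adjusted p = 0.0116). Against shScr its values were 0.59 (adjusted p = 0.133, or 3.16e-07 in the paired fit) and -0.42 (0.281, or 8.67e-05). Me1, malic enzyme, fell with shRela-2 (-0.63 ± 0.0506, adjusted p = 1.3e-05) and was at 0.06 ± 0.0502 with shRela-1. Slc48a1, which carries heme out of endosomes and lysosomes, rose with shRela-1 (0.29 ± 0.041, adjusted p = 0.000569) and was at 0.02 with shRela-2.

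**Figure D4:**
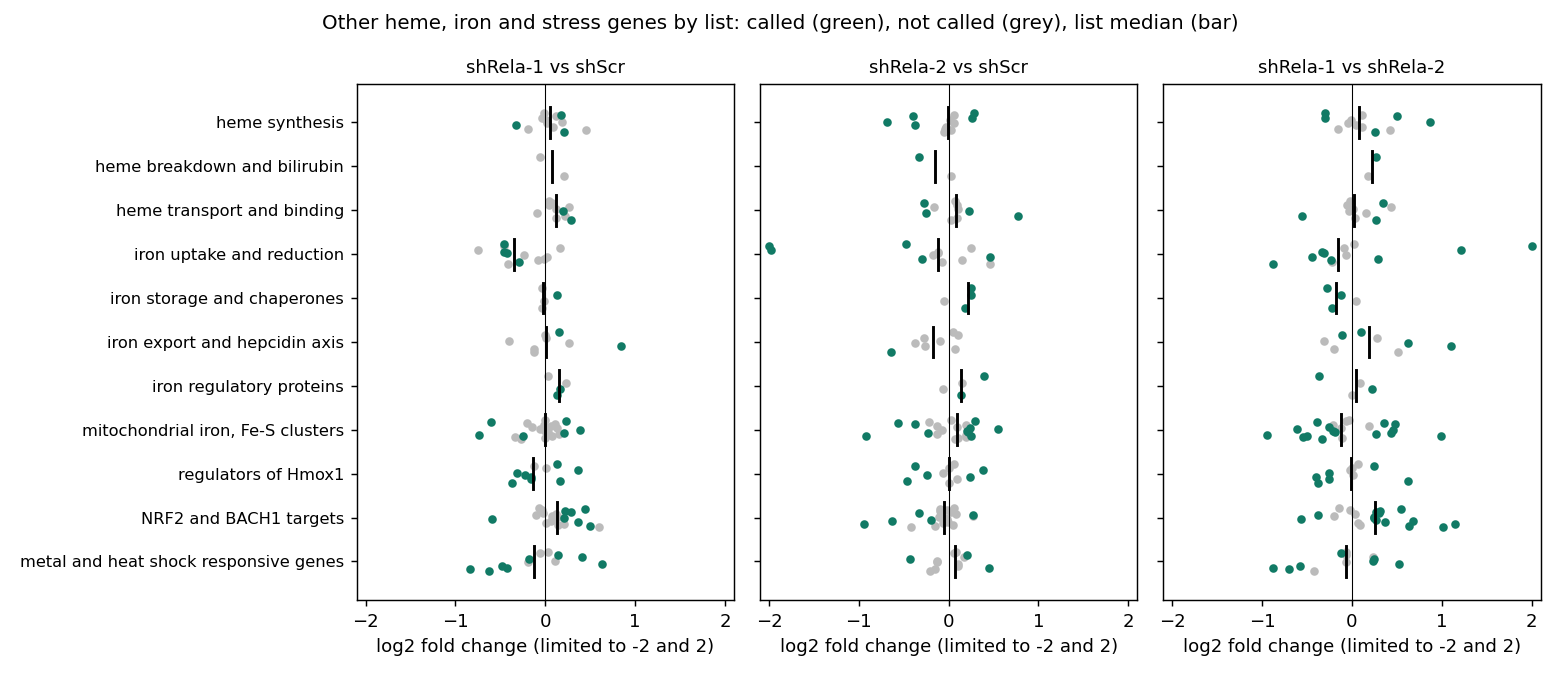
Log2 fold change (x axis, values beyond -2 or 2 drawn at the limit) of the tested genes of 11 lists (rows), the 8 genes of the main set left out, in the same 3 comparisons; each point is a gene, green if called, and the bar is the list's median. The list of NRF2 and BACH1 targets has its median at 0.26 between the hairpins, and that of iron uptake its median at -0.35 with shRela-1.

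Of 12 tested genes of iron uptake and reduction besides Tfrc, 4 fell with shRela-1 and the other 8 were not called, with a median of -0.35. With shRela-2, 1 rose and 4 fell, with a median of -0.12. Among all genes 12.4% fell with shRela-1, and 15.4% rose and 15.4% fell with shRela-2. Cd44, a hyaluronan receptor reported to take up iron, fell with both hairpins to 874 ± 18.1 CPM with shRela-1 and 862 ± 53.9 CPM with shRela-2, against 1199 ± 6.35 CPM with shScr (-0.46 and -0.48, adjusted p = 5.86e-05 and 3.8e-05). Slc39a8, a metal importer, rose with shRela-2 (0.47 ± 0.0959, adjusted p = 0.00406). Named after their values were seen, Trf, Steap2 and Steap3 were the others that fell with shRela-1, and Slc39a14 (-0.30), Steap4 (-1.97) and Lcn2 (-4.62) those that fell with shRela-2. Lcn2 had 108 counts and Steap4 621 over all 9 samples, so these 2 values (SE 0.73 and 0.374) rest on low counts. Trf (-0.29, adjusted p = 0.0472) kept its call in only 1 of the 9 fits that leave out 1 sample, the one without shRela-1 replicate 2, and Steap2 (-0.43) was not called without shRela-1 replicate 2 or 3 or shScr replicate 1. With shRela-1 the number that fell was 2 without shRela-1 replicate 3 or shScr replicate 1, and 7 in the paired fit. With shRela-2 the number that rose was 2 without shScr replicate 3 and 3 in the paired fit.

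Between the hairpins 3 genes of this list were higher and 5 lower with shRela-1, with a median of -0.15, beside 19.9% higher and 20% lower over all genes. The number lower was 3 without shRela-1 replicate 2 or 3 or shRela-2 replicate 3. Tfr2, the second transferrin receptor, was at 1.66 ± 0.383 CPM with shRela-1 and 3.04 ± 1.02 CPM with shRela-2 (-0.88 ± 0.286, adjusted p = 0.0324). That call was lost without shRela-1 replicate 2 (0.112) or 3 (0.0568) or shRela-2 replicate 3 (0.142).

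Hfe, which encodes a class I-like protein that binds the transferrin receptor, rose with shRela-1 in the list of iron export and the hepcidin axis. It was at 12.9 ± 0.498 CPM with shRela-1, 5.99 ± 0.511 CPM with shRela-2 and 7.19 ± 0.609 CPM with shScr (SD, n = 3 each). The change was 0.84 ± 0.0914 with shRela-1 (adjusted p = 9.88e-05) and -0.27 ± 0.0935 with shRela-2 (adjusted p = 0.0542, or 0.0101 in the paired fit and 0.0434 without shScr replicate 3). Of the 8 tested genes of the list 2 rose with shRela-1, Hfe and App (0.15), and 1 fell with shRela-2, the ferroxidase gene Cp (-0.65, adjusted p = 0.0466). The shares over all genes were 12.3% rising with shRela-1 and 15.4% falling with shRela-2. The call of Cp was lost without shRela-1 replicate 1 (0.0506), shRela-2 replicate 1 (0.0825) or 3 (0.152), or shScr replicate 1 (0.0889) or 2 (0.151). Cp was also not called by the Wald test of DESeq2 (adjusted p = 0.0525) or by limma with voom (0.0606). In the paired fit 1 rose and 3 fell with shRela-2. The list's medians were 0.0043 and -0.18 against shScr and 0.19 between the hairpins.

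Of the 4 genes of iron regulatory proteins and their breakdown, 2 rose with each hairpin against shScr, with medians of 0.15 and 0.14. The share of all genes called higher than in shScr was 12.3% under shRela-1, against 15.4% under shRela-2. Both shares also go with the list of storage and chaperones at the end of this paragraph. Ireb2, which encodes iron regulatory protein 2, was at 94.3 ± 4.74 CPM with shRela-1, 81.0 ± 0.698 CPM with shRela-2 and 84.3 ± 2.12 CPM with shScr, and differed between the hairpins by 0.22 ± 0.0409 (adjusted p = 0.00153). Its rise with shRela-1 (0.16, adjusted p = 0.0154) was lost without shRela-1 replicate 2 or 3 or shScr replicate 1 or 3 (adjusted p from 0.0504 to 0.0632). Aco1, which encodes iron regulatory protein 1, was at 69.0 ± 2.68, 69.2 ± 1.101 and 62.9 ± 2.72 CPM in the same order of groups. It was called with shRela-1 (0.13, adjusted p = 0.0382), but of the 9 fits that leave out 1 sample it kept the call in those without shRela-1 replicate 2 or shScr replicate 3 alone. It was called with shRela-2 (0.14, adjusted p = 0.0287), but not without shRela-2 replicate 1 or 3 or shScr replicate 1 or 2 (adjusted p from 0.0695 to 0.102). Skp1a, of the ligase that breaks down these proteins, rose with shRela-2 (0.40 ± 0.045, adjusted p = 0.000108). Fbxl5, the list's remaining gene, was not called in the main fit but passed with both hairpins in the paired fit. It was at 0.23 with shRela-1 (adjusted p = 0.0674, or 0.000115 in the paired fit, and called under other alternatives too). With shRela-2 it was at 0.145 (adjusted p = 0.232, or 0.00765 in the paired fit). Ncoa4, the receptor that delivers ferritin for breakdown, was at 122 ± 1.82, 133 ± 0.647 and 112 ± 1.47 CPM and rose with shRela-1 (0.13 ± 0.0321, adjusted p = 0.0146, or 0.0564 without shScr replicate 2) and with shRela-2 (0.25 ± 0.0321, adjusted p = 0.000254). In the list of storage and chaperones, of 4 genes besides the ferritins 1 rose with shRela-1 and 3 rose with shRela-2, namely Ncoa4, Pcbp1 (0.18) and Herc2 (0.25, adjusted p = 0.0126, or 0.0535 without shRela-2 replicate 2).

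Of 12 tested genes of heme synthesis 2 rose and 1 fell with shRela-1, and 2 rose and 3 fell with shRela-2, with medians of 0.05 and -0.0060. Among all genes 24.7% were called with shRela-1 and 30.9% with shRela-2, in either direction. Cpox, coproporphyrinogen oxidase, fell with shRela-2 to 16.4 ± 1.56 CPM, against 26.4 ± 3.12 CPM with shScr (-0.68 ± 0.108, adjusted p = 0.000872), and was at 30.0 ± 3.30 CPM with shRela-1. Tmem14c, a porphyrin carrier of mitochondria, fell with shRela-2 (-0.39 ± 0.0481, adjusted p = 0.00018), and Uros, uroporphyrinogen III synthase, fell with both hairpins (-0.33 and -0.37, adjusted p = 0.00717 and 0.00284). Named after their values were seen, Alas1 and Abcb10 rose with shRela-1 (0.20 and 0.18, adjusted p = 0.0344 and 0.0298). Neither was called without shRela-1 replicate 2 or shScr replicate 1 or 3, Alas1 without shRela-1 replicate 1, or Abcb10 without shRela-1 replicate 3, so that both calls were lost without shRela-1 replicate 2 or shScr replicate 1 or 3. Fech, the enzyme that puts iron into heme, and Clpx rose with shRela-2 (0.26 and 0.28). In the paired fit 4 rose and 2 fell with shRela-1.

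Among genes of heme transport, of which 10 of 12 were in the table, 2 rose with shRela-1, and 2 rose and 2 fell with shRela-2. The shares called over all genes were 24.7% and 30.9%, in either direction. Abcb6, a porphyrin transporter, rose with shRela-2 to 12.7 ± 1.33 CPM, against 7.45 ± 1.02 CPM with shScr (0.77 ± 0.113, adjusted p = 0.000588), and was at 8.68 ± 0.494 CPM with shRela-1. The others, partly named after their values were seen, were Slc48a1 and Pgrmc1 (rising with shRela-1), Pgrmc1 (rising with shRela-2), and Hebp1 and Slc46a1 (falling with shRela-2, -0.28 and -0.25). Pgrmc1 was not called with shRela-1 without shScr replicate 3 (adjusted p = 0.0624), and in the paired fit 5 rose with shRela-1. Neither Hebp1 nor Slc46a1 was called with shRela-2 in the fit of those 2 groups alone or without shRela-2 replicate 1, and 1 of them was called without each other single sample of shRela-2 or shScr. Por, the reductase that feeds electrons to heme oxygenase, fell with shRela-2 (-0.33 ± 0.0414, adjusted p = 0.000188) and was at -0.06 with shRela-1.

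Among 21 genes of mitochondrial iron and iron-sulphur clusters, 3 rose and 3 fell with shRela-1, and 6 rose and 4 fell with shRela-2 (6 fell with shRela-1 in the paired fit). Over all genes 24.7% and 30.9% were called with these hairpins, in either direction. Iscu, the scaffold on which the clusters are built, was at 61.9 ± 1.32 CPM with shRela-1, 31.0 ± 2.92 CPM with shRela-2 and 58.9 ± 1.97 CPM with shScr (SD, n = 3 each), and fell with shRela-2 (-0.92 ± 0.0603, adjusted p = 4.25e-06). Lyrm4, a partner of the sulphur donor enzyme, fell with shRela-1 (-0.74 ± 0.175, adjusted p = 0.0111), and Iba57 rose with shRela-2 (0.54 ± 0.0849, adjusted p = 8e-04). The list's medians were -0.0031 and 0.10 against shScr. Between the hairpins 6 genes of this list were higher and 9 lower with shRela-1, with a median of -0.115. Over all genes 19.9% were higher and 20% lower in that comparison. Named after their values were seen, Slc25a37 and Abcb8 (lower) and Hscb (higher) lost that call when some single samples were left out.

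Genes that respond to metals and heat were set beside Hmox1 because they mark other stresses that are known to induce it. Of 12 tested, 3 rose and 5 fell with shRela-1, and 2 rose and 1 fell with shRela-2, with medians of -0.12 and 0.07. Among all genes 12.3% rose and 12.4% fell with shRela-1, and 15.4% went in each direction with shRela-2. The metallothionein genes had their lowest means with shRela-1: Mt2 was at 10.9 ± 2.94 CPM with shRela-1, 17.7 ± 3.55 CPM with shRela-2 and 19.6 ± 4.89 CPM with shScr, and Mt1 at 24.8 ± 6.59, 33.3 ± 4.80 and 38.4 ± 5.45 CPM. Both fell with shRela-1 (-0.84 and -0.63, adjusted p = 0.0171 and 0.0224), and both calls were lost without shRela-1 replicate 2 or 3 or shScr replicate 1 (adjusted p from 0.0561 to 0.0921). Slc30a1, the zinc exporter, fell with shRela-1 (-0.43 ± 0.104, adjusted p = 0.0124) and rose with shRela-2 (0.45 ± 0.102, adjusted p = 0.00721). The 3 that rose with shRela-1, Hspa1a, Hspb1 and Hsp90aa1 (0.63, 0.40 and 0.14), all lost their call without shScr replicate 2, and 1 kept it without shRela-1 replicate 1 or shScr replicate 3. The number that fell with shRela-1 was 2 without shRela-1 replicate 2 or 3 or shScr replicate 1. With shRela-2 the number that fell was 2 without shScr replicate 2 and 4 in the paired fit.

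An earlier analysis of these counts named AGGTGTA and GAAGCTA as the 7-base sequences of 3' untranslated regions that go with lower levels under shRela-1 and shRela-2. AGGTGTA, on the sense strand, is in 9.41% of the 14414 tested genes with an annotated region, and in none of the 8 genes (0 of 8). GAAGCTA is in 11.5% of them and in 1 of the 8, Slc40a1. These sequences were picked on the same counts for the lower levels of the genes that hold them, so those levels are not given again, and a part of either sequence in the members' values was not tested.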

How the data were processed

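The deposited values are raw read counts, with 1 row per gene symbol and 1 column for each of the 9 samples. Tools listed in the submitters' processing notes, with no roles or settings, are featureCounts 1.4.6, Subread, Bowtie2 2.2.6 and TopHat2 2.0.14, and the build is mm10. Per the labels' protocols a TruSeq kit (version 2) was used, a kit that does not mark strand. A count of 2 occurred more often than a count of 1 (7984 against 2764 values). The sources used here do not say whether both mates of a pair were counted.

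Genes were kept by filterByExpr of edgeR 4.0.16 in R 4.3.3 (15369 of 24062), scaled by TMM (factors 0.976 to 1.02) and fitted by glmQLFit with 1 mean per group over all 9 samples. glmQLFTest, two-sided, gave 3 contrasts, with Benjamini-Hochberg adjustment over all genes and a threshold of 0.05. "Rose" and "fell" mean calls at this threshold. CPM use TMM-scaled totals, and log2 CPM a prior count of 2. On simulated data with 200 changed genes the fit was tested before use. Lengths, positions and transcript sequences come from GENCODE vM21 (GRCm38, the same assembly as mm10).

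The 8 genes, the 16 gene lists and the rule for named genes were chosen with earlier results of these data known. The rule took, per list, up to 3 called genes with the largest log2 fold change whose groups do not overlap (mean log2 CPM of at least 1). It also took the 5 genes most like Hmox1, passing over clone and model numbers. List counts leave out the 8 genes. Rai1, entered in error among the regulators, was taken off that list afterwards, as were Fth1 and Ftl1 from the list of NRF2 and BACH1 targets.

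Replicate numbers in the titles are shared by the groups. Deviations from group means correlated at 0.189 to 0.415 in all 9 same-numbered pairs and at -0.306 to 0.0459 in other pairs, so the fit with the replicate block, called the paired fit, was run beside the main one. Counts of replicates differed by more than sampling noise, with a ratio of chi-square to its degrees of freedom of 11.9 to 112, so none was counted as a duplicate. Alternatives were DESeq2 1.42.0 (size factors, and its Wald test), limma 3.58.1 with voom, no filter on low counts, only the 2 groups compared, and leaving out each sample.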

Additional observations from a re-analysis of the deposited data

Results flagged for a closer look

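Fth1 and Bach1 were the members other than Hmox1 that were called in opposite directions with the 2 hairpins against Rela, with the difference between hairpins itself tested. That difference was 0.67 on the log2 scale for Fth1 (0.666, adjusted p = 6.57e-05) and -0.94 for Bach1 (-0.941, adjusted p = 1.48e-07), shRela-1 against shRela-2, by glmQLFTest of edgeR. All 3 samples of each hairpin were on the same side for both genes. How many of all genes tested were called in opposite directions was not counted, so the pattern cannot be called particular to these genes. Taken singly, 24.7% of all genes were called with shRela-1, 30.9% with shRela-2 and 39.9% between the hairpins.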

How the results depend on the processing

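The number of genes called with shRela-1 against shScr was 3799, and 6034 with the replicate block, while leaving out 1 sample gave 2745 to 3824. The counts of genes called in the other 2 contrasts and the count of members called stayed within 1.5 times under the 15 alternatives per contrast. By Spearman's rho 0 of the 5 genes most like Hmox1 were shared. Of the members' calls, the block changed those of Blvrb against shScr alone. Values of members that were not called changed sign when single samples were left out. Blvra ranged from -0.0388 to 0.107 with shRela-1, from -0.0760 to 0.0759 with shRela-2 and from -0.0122 to 0.0879 between the hairpins. Blvrb ranged from -0.0902 to 0.0870 between the hairpins, Slc40a1 from -0.349 to 0.0320 with shRela-2, and Tfrc from -0.00977 to 0.146 between the hairpins. Of the counts over gene lists 1308 stayed within 1.5 times and 132 did not. The cause was not tested.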
